A study of Mus musculus with 2 samples.

Results

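The ATF4 targets and amino acid transporters examined here are 39 genes of the amino acid response and of amino acid transport across the plasma or lysosomal membrane, out of 43346 features in the deposited gene table. They were chosen by symbol, and all 39 symbols were found. By role, 21 are response genes and 18 are transporters. RNA came from X63/0 (X63-Ag8.653), an established mouse plasmacytoma line that no longer makes its own antibody, grown as an untreated culture or harvested 3 h after addition of 30 mM cycloleucine. By its title the series follows transcripts under reduced S-adenosylmethionine, the main donor of methyl groups in the cell. Line and serum-containing medium were common to both groups, and no vehicle for the untreated culture is named. The design text speaks of a triplicated experiment. Here each group is a single library, so the values carry no measure of variation between cultures and were not tested.

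Cells read a shortage of amino acids through the kinase GCN2, which binds uncharged tRNA and phosphorylates the translation factor eIF2. General translation then slows, while the mRNA of the transcription factor ATF4 is translated more efficiently, and ATF4 together with C/EBP partners raises genes for amino acid synthesis, amino acid uptake and the restraint of growth. The same output can be reached from endoplasmic reticulum stress through the kinase PERK, a route of particular relevance to plasma cells. Cycloleucine is a non-metabolised cyclic amino acid that inhibits methionine adenosyltransferase and is itself carried by amino acid transporters.

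ATF4 and C/EBP proteins bind a composite site, the C/EBP-ATF response element, whose core was searched for as TGATGNAA on both strands. The windows were the RefSeq promoters of GRCm38.p6, which run from 250 bases before to 50 bases after each gene start. Of the 39 genes, 33 had a window, and Eif4ebp1, Slc7a5, Slc7a3, Slc1a5, Slc38a1 and Slc6a6 had none. A match was present in 10 of these 33 genes, or 30.3%, against 4.51% of 27025 genes and 3.97% of 32851 windows. Many of the genes were listed as known ATF4 targets, so a higher share can follow from the choice and is not read as a result. By role, the matches fell in 8 of 20 response genes and in 2 of 13 transporters. There were 11 matches in all, of which 8 had C at the free position, 2 had T and 1 had A. The 9 matches that lie wholly before the RefSeq gene start follow, because they hold the letters of the element through which ATF4 is known to act. RefSeq starts differ from the gene spans of the deposited table: by those spans the matches of Nupr1, Asns, Atf3 and Vldlr lie inside the gene. Each is a 30 base window read 5′ to 3′ on the strand of the gene, with the match in capitals. A match read as TTNCATCA is the same element on the opposite strand.
Nupr1 (chr7:126625562-126625591, minus strand): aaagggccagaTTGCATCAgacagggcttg
Asns (chr6:7693214-7693243, minus strand): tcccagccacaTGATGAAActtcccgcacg
Chac1 (chr2:119351038-119351067, plus strand): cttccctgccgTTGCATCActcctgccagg
Atf3 (chr1:191183425-191183454, minus strand): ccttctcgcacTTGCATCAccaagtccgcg
Pck2 (chr14:55540152-55540181, plus strand): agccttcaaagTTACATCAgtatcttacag
Herpud1 (chr8:94386306-94386335, plus strand): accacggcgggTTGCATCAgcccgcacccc
Vldlr (chr19:27216809-27216838, plus strand): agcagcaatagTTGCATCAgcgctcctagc
Slc7a11, distal (chr3:50443661-50443690, minus strand): tctcatgtggcTGATGCAAacctggagaat
Slc7a11, proximal (chr3:50443642-50443671, minus strand): acctggagaatTTGCATCAtcatgcagccc
The other 2 matches lay at or past the RefSeq start, in Slc1a4 at chr11:20332710-20332717 and in Trib3 at chr2:152344039-152344046. By the deposited span the Trib3 match lies before the gene. Slc7a11 was the gene with a pair of matches, which face each other. A match is a description of the letters and not a measured binding site.

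Gene reads numbered 27127865 without and 31951946 with cycloleucine, of which 48.4% and 49.4% lay in exons. Levels are RPKM, exon reads scaled to exon length and to all gene reads of the library, as the authors deposited them. A log2 fold change is the log2 of the cycloleucine RPKM plus 0.1 over the untreated RPKM plus 0.1, a scale that shrinks the change of genes at low levels. A gene counted as measured when its RPKM reached 1 in the untreated or the treated cells and its exon reads summed to 50 or more. Except for intron to exon ratios, intervals in brackets are 95% exact (Clopper-Pearson) intervals, which cover counting error only and not variation between cultures. They are for the plain ratio of counts scaled by gene reads, without the amount added to the value. At low levels they therefore need not centre on the value beside them. Over all 9081 measured features the median log2 fold change was 0.0022, and the middle 95% lay between -0.52 and 0.55. The label of the line held against its markers: 9 of 10 plasma cell genes were measured, with summed RPKM of 871 and 881. No T and natural killer cell, myeloid or fibroblast gene was measured, with summed RPKM of 0.55 and 0.65 over 10 genes, 0.80 and 0.88 over 7, and 0.41 and 0.34 over 7, in the untreated and the cycloleucine library. As in any bulk sample, fewer cells of a type and less RNA per cell cannot be told apart.

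Of the 39 genes, 31 were measured, 18 of 21 response genes and 13 of 18 transporters. Of these, 25 lay within 0.32 of 0 in log2, the smaller of the thresholds used, and a small set stood outside. Adm2 and Nupr1 were at least 1.5-fold higher in the cycloleucine library, and Ddit3 was at least 1.5-fold lower. The same rule called 2.16% of all measured features higher and 1.87% lower. Past 0.32 in log2, Ddit4 and Atf5 joined the higher set, 4 in all, and Slc7a8 the lower, 2 in all, against 8.44% and 7.08% of all measured features. Atf5 fell short of this threshold with a pseudocount of 1 (0.31) and with scaling by total exon reads (0.30). With uniquely placed reads Slc38a2 (0.35) and Slc7a11 (0.33) passed it, which made 6 higher, against 10.8% of features. Counts this small lie near the background and are not read as a result about the set. The median log2 fold change was 0.10 for the response genes, with 11 above and 7 below 0, and 0.04 for the transporters, with 7 above and 6 below. The 7 include Slc36a1, which was measured through the cycloleucine library alone, and these counts are not read as a direction. Of all measured features, 50.6% lay above 0. For comparison, 12 housekeeping genes had a median of 0.12 and lay between -0.05 and 0.36, with 10 above 0 and 2 past 0.32. No gene here reached 2-fold by this rule, which 0.374% of measured features did upward and 0.44% downward.

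**Figure D1:**
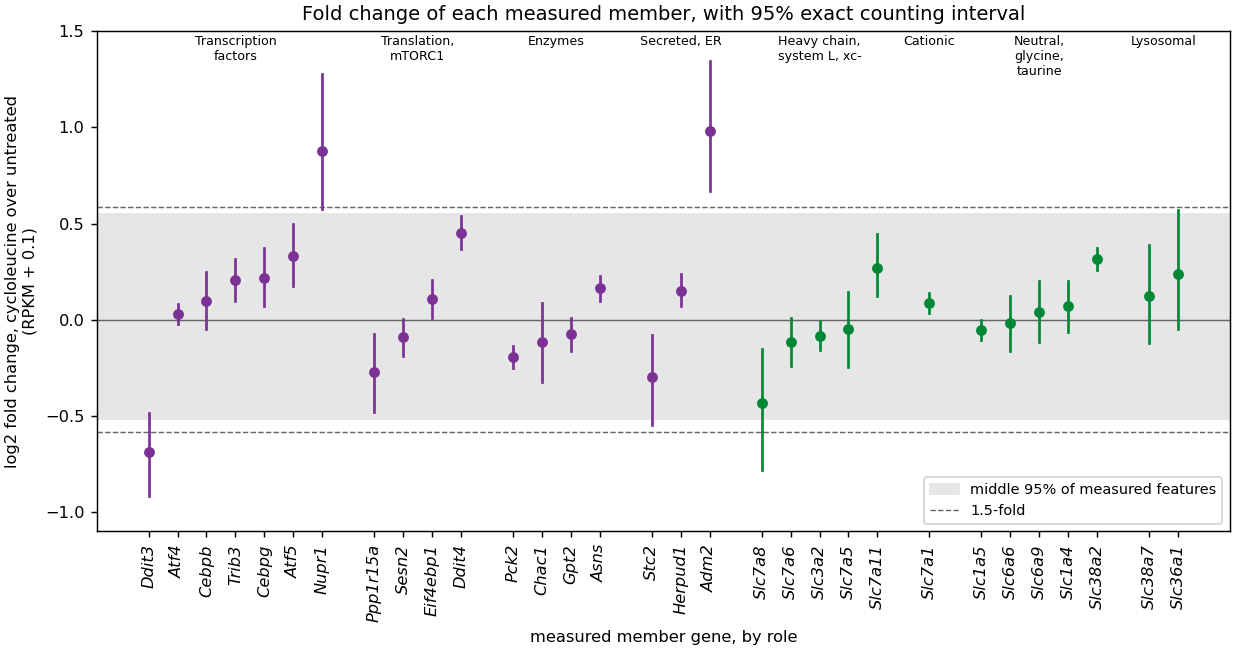
Log2 fold change (cycloleucine over untreated, RPKM plus 0.1) of the 31 measured genes by role, response genes in purple and transporters in green, with 95% exact counting intervals as bars. The grey band is the middle 95% of measured features and the dashed lines mark 1.5-fold. Adm2 (0.98) and Nupr1 (0.88) stand above the band and Ddit3 (-0.69) below it, while the transporters lie between -0.43 and 0.32.

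Among the transcription factors, Atf4 itself was the most abundant gene of the set. It had 127 RPKM without and 130 RPKM with cycloleucine, from 5958 and 7167 exon reads, a log2 fold change of 0.03 (-0.02 to 0.08). Its exon level was thus nearly the same in both, and it ranked first among the 31 in each library. Reads crossing its exon-exon junctions were 290 and 408, a log2 change of 0.26 (0.04 to 0.48). ATF4 is controlled largely at translation, which these libraries do not measure. Atf5, a related factor whose mRNA also carries upstream reading frames, had 9.96 and 12.6 RPKM (0.33, 0.18 to 0.50). Its gene shares 571 bases with Nup62, which itself had 1038 and 1790 exon reads, and the part of that overlap in the Atf5 value was not tested. Of its exon reads 89.6% and 92.2% were uniquely placed, and on these alone Atf5 was at 0.41. Atf3, a stress-induced repressor downstream of ATF4, had 0 and 2 exon reads beside 23 and 22 intron reads. Both exon counts are under the 3 reads that a count of 0 allows, which for this gene is 0.0513 and 0.0436 RPKM.

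Ddit3 encodes CHOP, which joins ATF4 in prolonged stress and promotes cell death. It had 9.19 RPKM without and 5.66 RPKM with cycloleucine, from 427 and 310 exon reads, 1.62-fold lower (1.40 to 1.88). Reads spanning 2 of its exons, a readout of spliced transcripts, were lower too, with 74 and 58 (log2 -0.58, -1.11 to -0.07). Intron reads were 97 and 104, so the ratio of intron to exon reads was higher by 0.56 in log2 (0.11 to 1.01). The gene lies on chromosome 10 from 127290774 to 127296288 in mm10 and shares 68 bases with Mars. Its direction was opposite to that of Atf5, Nupr1 and Trib3.

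Nupr1, a small chromatin-associated stress protein induced by ATF4, was among the lowest measured genes of the set and had 1.45 and 2.75 RPKM. This rests on 99 and 221 exon reads and is 1.90-fold higher (1.49 to 2.43). Junction reads were 7 and 27 and intron reads 15 and 19. The gene spans chromosome 7 from 126623249 to 126630861. Trib3, a pseudokinase that binds ATF4 and holds it in check, had 20.5 and 23.6 RPKM (0.21, 0.10 to 0.32). The dimer partner Cebpg was at 0.22 (0.07 to 0.37) and Cebpb at 0.10 (-0.05 to 0.25). Cebpb shares 908 bases with Tmem189, and 60.9% and 57.5% of its reads were uniquely placed. In all, 6 of the 7 measured transcription factor and regulator genes lay above 0 and Ddit3 below, where 50.6% of all measured features lay above 0. The intervals of Atf4 and Cebpb include 0, and the count is not read as a shared direction.

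The members that act on translation and growth went different ways. Ddit4 (REDD1), an inhibitor of the growth kinase complex mTORC1, had 37.9 and 51.9 RPKM. From 1732 and 2794 exon reads it was 1.37-fold higher (1.29 to 1.46). Its junction reads (131 and 242, log2 0.65) and intron reads (31 and 54, log2 0.55, with an interval that includes 0) pointed the same way. Sesn2, a leucine sensor that also restrains mTORC1, had 17.9 and 16.8 RPKM (-0.09, -0.19 to 0.01), while its junction reads were 264 and 190 (-0.71, -0.99 to -0.44) and its intron reads 181 and 146 (-0.55, -0.87 to -0.22). Exon reads of Sesn2 thus barely differed although both other read classes were lower. Eif4ebp1, whose protein blocks cap-dependent initiation, was at 0.11 (0.01 to 0.21) and was the second most abundant member, with 56.6 and 61.1 RPKM. Ppp1r15a (GADD34), the phosphatase subunit that reverses eIF2 phosphorylation, was at -0.27 (-0.48 to -0.07), with 412 and 401 exon reads.

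Amino acid enzymes lay close to the centre of all features. Asns, asparagine synthetase and a textbook ATF4 target, had 46.9 and 52.5 RPKM, a log2 fold change of 0.16 (0.10 to 0.23). Its junction reads changed by a similar size, with 930 and 1267 (0.21, 0.09 to 0.33). Pck2, the mitochondrial phosphoenolpyruvate carboxykinase, had 55.8 and 48.8 RPKM (-0.19, -0.25 to -0.14). Gpt2, a mitochondrial alanine aminotransferase, was at -0.08 (-0.16 to 0.01). Chac1, which degrades glutathione and is among the most inducible ATF4 targets, had 8.60 and 7.93 RPKM from 382 and 415 exon reads (-0.12, -0.32 to 0.09). Asns was thus slightly higher and the other 3 enzymes were at or below 0.

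Of the genes for secreted, surface and endoplasmic reticulum proteins, Adm2 stood out. Adm2 (intermedin), a peptide hormone of the calcitonin family, had 3.75 RPKM without and 7.50 RPKM with cycloleucine. The counts were 106 and 250 exon reads, all uniquely placed, a plain ratio of 2.002-fold (1.59 to 2.54) and a log2 fold change of 0.98. Junction reads were 15 and 43 (log2 interval 0.41 to 2.24), and intron reads only 4 and 3. The gene lies on chromosome 15 from 89322972 to 89324728. Herpud1, a component of endoplasmic reticulum-associated degradation, had 32.8 and 36.5 RPKM (0.15, 0.07 to 0.24). Stc2, a secreted glycoprotein induced by stress of the endoplasmic reticulum, had 2.24 and 1.80 RPKM (-0.30, -0.55 to -0.08). The cytokine gene Gdf15 (0 and 3 exon reads) was at the floor of 3 reads and the lipoprotein receptor gene Vldlr (3 and 9) was little above it with cycloleucine, and neither was measured.

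**Figure D2:**
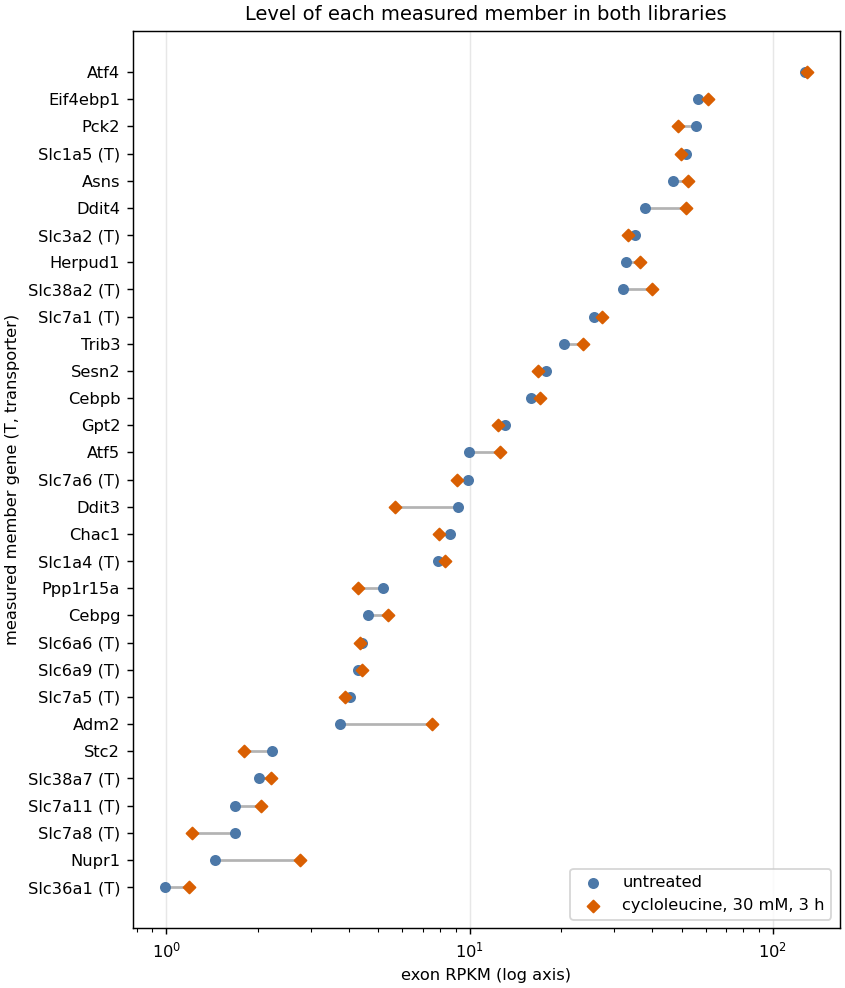
Exon RPKM (log axis) of the 31 measured genes in the untreated library (blue circles) and the cycloleucine library (orange diamonds), ordered by the untreated level, with T marking transporters. Atf4 is highest in both (127 and 130), and the widest gaps between the libraries are those of Adm2 and Nupr1 to the right and Ddit3 to the left.

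None of the 13 measured transporters reached 1.5-fold in either direction. Only 2.16% of all measured features were that much higher and 1.87% lower, so this is not read as a result about transporters. The highest was Slc38a2 (SNAT2), a sodium-coupled importer of small neutral amino acids that is known to be induced by amino acid withdrawal. It had 32.1 and 39.95 RPKM from 4023 and 5905 exon reads (0.32, 0.26 to 0.38), just short of the smaller threshold before rounding. Its junction reads were 762 and 1138 (0.34, 0.21 to 0.48), while intron reads were 310 and 334 (-0.13, -0.36 to 0.10). Slc7a11, the cystine and glutamate exchanger xCT, had 1.69 and 2.06 RPKM (0.27, 0.13 to 0.45), but its junction reads were 46 and 37 (-0.55, -1.22 to 0.11). The lowest was Slc7a8 (LAT2), a light chain for large neutral amino acids, with 1.68 and 1.22 RPKM from 184 and 157 exon reads (-0.43, -0.78 to -0.15). Its junction reads, 17 and 23, did not share that direction.

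Apart from Slc7a8, the heavy chain and the measured exchangers of large neutral amino acids or glutamine differed little. Slc3a2, the heavy chain that carries the light chains to the membrane, had 35.2 and 33.2 RPKM (-0.08, -0.16 to -0.01), and the light chain gene Slc7a6 was at -0.12 (-0.24 to 0.01). Slc1a5 (ASCT2), which exchanges glutamine, was the most abundant transporter, with 51.9 and 49.97 RPKM (-0.05). Slc7a5 (LAT1), which imports leucine in exchange for glutamine, had only 4.03 and 3.89 RPKM (-0.05, -0.25 to 0.15). The reads behind that level were unusual in kind: 397 of its 405 exon reads in the untreated library crossed exon-exon junctions, 98.04% over both libraries, where the median of 8943 annotated genes with at least 200 exon reads was 21.5%. Slc7a5 lies on chromosome 8 from 121881150 to 121907694, wholly inside the annotated feature Gm20388 (119910841 to 124345722), which took 303915 and 362621 gene reads, and the part of that overlap in the level was not tested. Its junction reads, 397 and 452, can be set beside the 529 and 552 of Slc3a2. On that scale the ratio between the libraries was -0.05 in log2 for Slc7a5 and -0.17 for Slc3a2. Reads that lie in exons without crossing a junction are nearly missing for Slc7a5, so its RPKM should not be ranked with those of the other genes.

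Slc7a1 (CAT1), the importer of arginine and lysine, had 25.7 and 27.3 RPKM (0.09, 0.03 to 0.14), from 5245 and 6558 exon reads. The neutral exchanger Slc1a4 (ASCT1) had 7.88 and 8.27 RPKM (0.07, -0.06 to 0.20), yet its junction reads were 64 and 139 (0.88, 0.45 to 1.33). Slc6a6, the taurine transporter, was at -0.02 (-0.16 to 0.12), and Slc6a9, the glycine transporter GLYT1, at 0.04 (-0.11 to 0.20). Of the 597 exon reads of Slc6a9 in the untreated library 127 were uniquely placed, and all 127 of these crossed junctions, so most of its reads were not uniquely placed. Of its 206 and 197 intron reads, 0 were uniquely placed. Its span shares 33260 bases with Gm17114, 6034 with Ccdc24 and 5939 with B4galt2. The part of these overlaps in its level and in its 0.04 was not tested. Both measured lysosomal transporters had values above 0 with intervals that include 0, where 50.6% of all measured features lay above 0. Slc38a7 (SNAT7), which exports glutamine from lysosomes, had 2.02 and 2.21 RPKM (0.13, -0.12 to 0.39), and Slc36a1 (PAT1), a proton-coupled exporter, had 0.99 and 1.18 RPKM (0.24, -0.05 to 0.57). Slc36a1 passed the filter through the cycloleucine library alone, so its place above 0 is not read as support for a direction.

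The other 5 transporters were not measured. Slc43a2 (LAT4) fell just short, with 0.90 and 0.80 RPKM from 246 and 256 exon reads. Slc43a1 (7 and 5 exon reads), Slc7a3 (7 and 8), Slc38a1 (4 and 8) and Slc36a4 (2 and 8) were near the floor. The line thus showed transcripts of SNAT2 and hardly any of SNAT1 (Slc38a1), of CAT1 and hardly any of CAT3 (Slc7a3). Over all 8 genes not measured, the highest RPKM was the 0.90 of Slc43a2.

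Junction and intron reads offered readouts beside exon reads. Junction reads are counted among the exon reads, so agreement between these changes is in part built in, most of all for Slc7a5. Of the 24 measured genes with at least 50 junction reads, 4 were at least 1.5-fold higher by junction reads (Adm2, Slc38a7, Slc1a4 and Ddit4) and 1 was lower (Sesn2), where 4.94% and 4.48% of 7810 genes were so. At the smaller threshold 6 were higher and 4 lower, against 14% and 14% of genes. At 2-fold Adm2 and Slc38a7 were higher and none lower, against 1.13% and 0.845%. In 20 of the 24 the junction and exon changes differed by no more than in the middle 95% of genes, -0.601 to 0.609 in log2. The 4 outside were Slc38a7 (18 and 52 junction reads, 1.14 above its exon change), Slc1a4 (0.81 above), Slc7a11 (0.83 below, at -0.83) and Sesn2 (at -0.62). Junction counts of Slc38a7 and Slc7a11 were small. Of 27 genes with at least 20 intron reads, 19 had a lower and 8 a higher intron to exon ratio in the cycloleucine library. Their median log2 change was -0.22, against 0.02 over 8404 genes. The share of those 8404 genes with a lower ratio was not counted, so the 19 are not read as a shared direction. All 27 lay inside the middle 95% of genes, -0.83 to 0.99. In Slc7a11 (intron change -0.16, -0.32 to -0.0057) and Slc7a1 (-0.16, -0.29 to -0.02) the intron interval lay below 0 and the exon interval above it. In Asns the intron to exon ratio was lower (-0.42, -0.74 to -0.11), as in Slc38a2 (-0.45, -0.68 to -0.22), while the intron changes themselves, -0.26 (-0.58 to 0.05) and -0.13, had intervals that include 0.

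**Figure D3:**
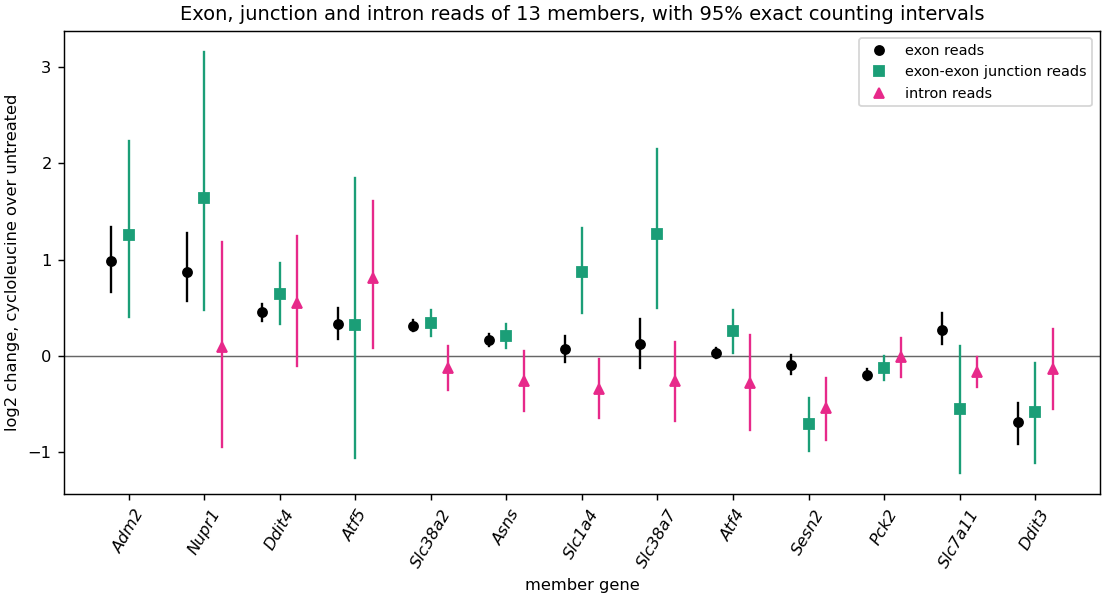
Log2 change (cycloleucine over untreated, scaled by gene reads) of exon, exon-exon junction and intron reads in 13 genes chosen after their values were seen, with 95% exact counting intervals as bars; read classes with under 20 reads are left out. In Adm2, Nupr1 and Ddit4 exon and junction reads are both higher, in Ddit3 both are lower, and in Sesn2, Slc1a4 and Slc38a7 junction reads stand apart from exon reads.

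The promoter matches can be set beside these values. Among measured genes with a promoter window, the 8 with a match had a median log2 fold change of 0.16, ranging from -0.19 (Pck2) to 0.88 (Nupr1), with 6 above and 2 below 0. The 19 without a match had a median of 0.04 and ranged from -0.69 (Ddit3) to 0.98 (Adm2), with 11 above and 8 below. Over all measured features with a window, 167 had a match and a median of 0.01, and those without had one of 0.0031. The gene with the highest change and the one with the lowest thus both lack these letters in this window, which says nothing of elements elsewhere.

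**Figure D4:**
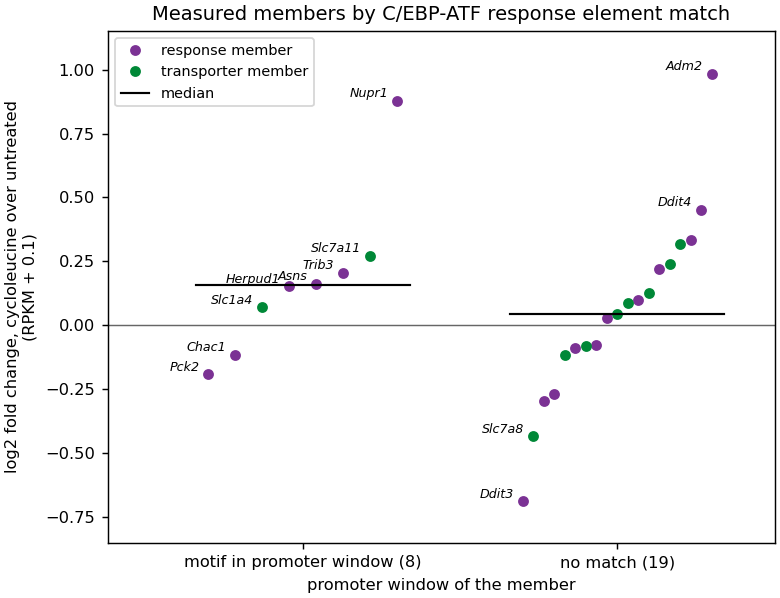
Log2 fold change (cycloleucine over untreated, RPKM plus 0.1) of the measured genes with a promoter window, split by a match to TGATGNAA on either strand (8 with, 19 without); each point is a gene, response genes in purple and transporters in green, and the horizontal line is the median. The groups overlap over most of their range, with medians of 0.16 and 0.04.

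Genes around the pathway gave a similar picture. Of 16 measured genes for eIF2 kinases, their partners, eIF2 and its exchange factor, 8 lay above and 8 below 0, with a median of 0.0062. None passed 0.32, where 8.44% of all measured features were higher and 7.08% lower, and for so few genes this is not read as a result. Eif2ak4, which encodes GCN2, was at 0.21 (-0.02 to 0.48), Eif2ak1, the heme-regulated kinase, at -0.22 (-0.35 to -0.10), and Ppp1r15b, the constitutive phosphatase partner, at 0.24 (0.18 to 0.30). Impact, an inhibitor of GCN2, was at -0.30 (-0.66 to 0.03), Eif2s1 at -0.24 and Eif2s2 at 0.23. Of 42 measured further ATF4-linked genes, among them serine synthesis enzymes and aminoacyl-tRNA synthetases, 27 lay above and 15 below 0, with a median of 0.04. Of all measured features, 50.6% lay above 0. Past 0.32 in log2, 2 of the 42 were higher and 2 lower, against 8.44% and 7.08% of all measured features. The higher were Jdp2 (0.38, -0.10 to 0.92) and Nfe2l2, the regulator of antioxidant genes (0.37, 0.25 to 0.49). The lower were Tnfrsf10b (-0.33, -0.70 to -0.01) and the hormone gene Fgf21. Fgf21 was at -0.76 (-1.71 to -0.01), with 32 and 21 exon reads, just above the read minimum. Its RPKM was 1.27 and 0.71, so it passed the filter through the untreated library alone, and its lower call is not read as support. The autophagy gene Atg12 was at 0.30 (0.09 to 0.53) and the asparaginyl-tRNA synthetase gene Nars at 0.27 (0.23 to 0.32).

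Of 42 other amino acid transporter genes 8 were measured, 4 above and 4 below 0, with a median of -0.05. Slc38a4 (SNAT4) had 19.0 and 23.5 RPKM (0.31, 0.23 to 0.39), close to the value of its relative Slc38a2. Slc6a19, a neutral amino acid transporter of gut and kidney, had 4.82 and 3.29 RPKM (-0.54, -0.72 to -0.38), but 0 of its 654 and 526 exon reads crossed a junction. Slc16a10, an exporter of aromatic amino acids, was at -0.27 (-0.44 to -0.11) and Ctns, the lysosomal cystine exporter, at 0.26 (-0.05 to 0.61). Slc1a3 and Slc38a10 were both at -0.13.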

How the data were processed

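The 2 libraries, 1 untreated and 1 given cycloleucine, were made from total RNA after removal of rRNA and read on the Ion Proton platform, per the labels' protocols. Read counts per gene over exons, introns and exon-exon junctions, all and uniquely placed, were deposited by the authors, per the file headers. RPKM values were computed by the authors: exon reads over exon length and total gene reads returned them in 29646 of 29646 annotated features in each library, within a share of 0.0001. Coordinates are in mm10, the build in the submitters' processing notes. The sources used here do not give the aligner, counter, annotation or strand setting, so overlapping genes may not be separated. The table counts starts from 0, and 1 was added here. The table had 0 columns of other libraries.

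Log2 fold changes used the deposited RPKM plus 0.1 in features with an annotated transcript, and junction and intron changes used the counts with 0.5 added. Intron to exon intervals are normal approximations. Trimmed means of M values came from edgeR 4.0.16, and the rest from Python 3.11.15 with scipy 1.17.1. No test was made with 1 library per group. The intervals were tried on simulated counts with known folds. Those counts held counting error alone, so the trial says nothing of variation between cultures, PCR copies or read placement. Reads made by PCR without molecular identifiers are not independent molecules. The genes and lists were chosen with earlier results of these data known. All listed genes are accounted for, and from each other pathway list up to 6 measured genes with the largest change are named.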

Additional observations from a re-analysis of the deposited data

How the results depend on the processing

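No paired analysis was possible because there was only 1 library in either group. Of 124 values of single genes under other pseudocounts, unique reads or rescaled totals, 0 left their counting interval. The rescalings shifted all features by -0.03 (total exon reads) and -0.0014 (trimmed mean of M values) in log2. Shifts of this size are smaller than the distance from any of these values to its interval bounds. The rescalings thus could not take a value out, and their part of the 124 is not read as support. With an RPKM of at least 5, which leaves 22 of the genes, 1 gene was past 1.5-fold upward and 1 past 0.32 in log2 downward, against 1.04% and 3.75% of all features under that filter. The upward gene was Adm2, with 3.75 RPKM untreated and 7.50 RPKM with cycloleucine. It passed that filter through the cycloleucine library alone, so its call there is not read as support. With a pseudocount of 1, 1 gene was past 0.32 downward and 3 upward, against 3.96% and 5.08%. With total exon reads 3 were upward and 3 downward, against 7.16% and 8.49%. With no filter on low values 7 of 39 genes were past 0.32 upward, against 12.5% of features, as genes of a few reads enter. With unique reads the transporter median was 0.0084, below the 0.03 of all features, where it was 0.04 against 0.0022 with all reads, so its place relative to other features turned. With total exon reads it was 0.01 against -0.03. Of 27 intron to exon ratios, 1 left its interval with unique reads, that of Atf5, at -0.52 against 0.47, and the cause was not tested.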

Other observations

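Slc7a5 shares its read pattern with other genes inside Gm20388. In all, 25 annotated genes with at least 200 exon reads over both libraries lie wholly inside that feature, and in all 25 more than 90% of exon reads crossed junctions (93.5% to 100%). Elsewhere in the table this held for 9 genes. The RPKM of these 25 genes is therefore built on junction reads. Gm20388 itself had 302220 and 360657 intron reads beside 1695 and 1964 exon reads. Among the 25, named after their values were seen, are Map1lc3b, an autophagosome protein gene of the ATF4-linked list, with 188 and 228 exon reads, and Fanca, a DNA repair gene, whose junction reads were 358 and 285 (log2 -0.56, -0.79 to -0.34). The median log2 change of junction reads over the 25 was -0.01.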
